A study of Rattus norvegicus with 6 samples.

Results

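Genes that control blood coagulation and fibrinolysis were examined in rat myocardium after ischemia. The 9 genes were F3, Tfpi, Thbd, Procr, Plat, Plau, Plaur, Vwf and Serpinb2, taken by gene name from the 32623 genes of the deposited table, and each name matched 1 row. RNA sequencing had been performed on total RNA of myocardial tissue from 6 wild-type male rats, 3 of a sham group and 3 of an ischemia group. In the ischemia group the left anterior descending coronary artery was tied under anesthesia after the chest had been opened, and the occlusion was checked by the ST segment of the electrocardiogram. The titles give 30 min for both groups, and no ligation is described for sham rats. Age, strain and the part of the heart that was sampled are not given in the labels. The question was which of these genes differed between sham and ischemia, and in which samples.

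Coagulation starts when tissue factor, encoded by F3, meets factor VII of the blood, and it ends in thrombin and fibrin. Endothelial cells hold this back with tissue factor pathway inhibitor (Tfpi), and with thrombomodulin (Thbd) and the endothelial protein C receptor (Procr), which together turn thrombin toward the activation of protein C. Fibrin is removed by plasmin, which is made from plasminogen by the tissue-type activator (Plat) and by urokinase (Plau), the latter bound to its receptor (Plaur) on the cell surface. The inhibitor encoded by Serpinb2 can block both activators, and von Willebrand factor (Vwf), stored in endothelial cells, tethers platelets and carries factor VIII.

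Total counts ranged from 68529126 to 79591989 per sample, so that 3 counts correspond to at most 0.0438 CPM (counts scaled to the library total). This limit covers counting error only. All rats are described as male, but sham replicate 1 had 26 counts on 3 Y-linked genes, where the others had 1772 to 4318. Summed CPM of 4 atrial genes (Myl7, Myl4, Sln and Nppa) was 49547 and 37608 in sham replicates 1 and 3 but 328 in sham replicate 2. In ischemia replicates 1 to 3 it was 9411, 1920 and 1187. Besides these atrial genes, 6 genes listed as ventricular cardiomyocyte markers were read. Their summed CPM was 39292, 53668 and 35323 in sham and 26097, 11061 and 20867 in ischemia, and each of them was detected in every sample. The groups were apart in this sum through Myh6. Without it, a choice made after seeing the data, the sums of the other 5 genes overlapped. They were 12373, 23819 and 11011 CPM in sham and 17809, 8329 and 15336 CPM in ischemia. Of these 5, Myl2 had 13833, 112303 and 12464 counts in sham and 53747, 22102 and 43583 in ischemia. Myl3 had 54715, 659428 and 66803 counts in sham and 423121, 215121 and 370074 in ischemia. Both were lowest in sham replicates 1 and 3, which had the highest atrial sums. The sums therefore do not show which part of the heart was sampled. Because the samples are pieces of bulk tissue, fewer cells of a type and less RNA per cell cannot be told apart.

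The receptor of urokinase rose in ischemia. Plaur was 29.3-fold higher, with an adjusted p of 0.0359 in the edgeR quasi-likelihood test. Serpinb2 had 4 reads in the sham group and 1080 in the ischemia group (edgeR adjusted p 0.0468), but it entered the test only through its ischemia level, and without the expression filter its adjusted p was 0.0541. Urokinase itself was 10.6-fold higher, just outside the threshold (edgeR adjusted p 0.0545). F3, Tfpi and Vwf had fitted folds between 0.863 and 1.12, and none of these 3 genes passed. Log2 fold changes of the 9 genes had a median of 1.01 and 7 were above 0, while the median of all 13964 tested genes was -0.0015. The median of the 9 was 0.51 without ischemia replicate 2 and 1.30 without ischemia replicate 1, where all tested genes had -0.045 and -0.011.

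All 9 members were expressed highly enough to be tested (mean FPKM of 0.5 or more), although Serpinb2 reached this level only through the ischemia samples. FPKM is the number of fragments scaled by gene length and library size. With an edgeR adjusted p under 0.05 over all tested genes, 2 of the 9 members were higher (Plaur, and Serpinb2 with the limit just given), where 5.18% of all tested genes were. In the other direction 0 of 9 members were called by edgeR, DESeq2 or limma, where 1.53% of tested genes were lower in edgeR. At an unadjusted p under 0.05, 6 members were called in edgeR, each of them higher, where 18.2% of all tested genes were higher and 32.4% were called in either direction. This count was 3 without sham replicate 1 and 3 without ischemia replicate 2, where 3090 and 3690 of the 13964 tested genes had such a p. Without ischemia replicate 1 it was 6, where 5509 genes did. The study picked genes of the MAPK pathway at a log2 fold change above 2 with p under 0.01. By this cut on the edgeR values, 3 members were higher (Plau, Plaur and Serpinb2) against 3.31% of tested genes. The study does not name the test behind its RNA-seq p-values, so these calls need not be its own. FPKM values of the groups did not overlap for 5 members, all higher in ischemia, where 23.6% of tested genes were apart in that direction. The edgeR calls depended on single samples. When any of the 3 sham rats or ischemia replicate 3 was left out, no member passed, and 0 of all 13964 tested genes did. Plaur alone passed without ischemia replicate 2 (3.31% of all genes higher and 0.781% lower), and Thbd, Plau, Plaur and Serpinb2 passed without ischemia replicate 1 (10.7% of all genes higher).

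**Figure D1:**
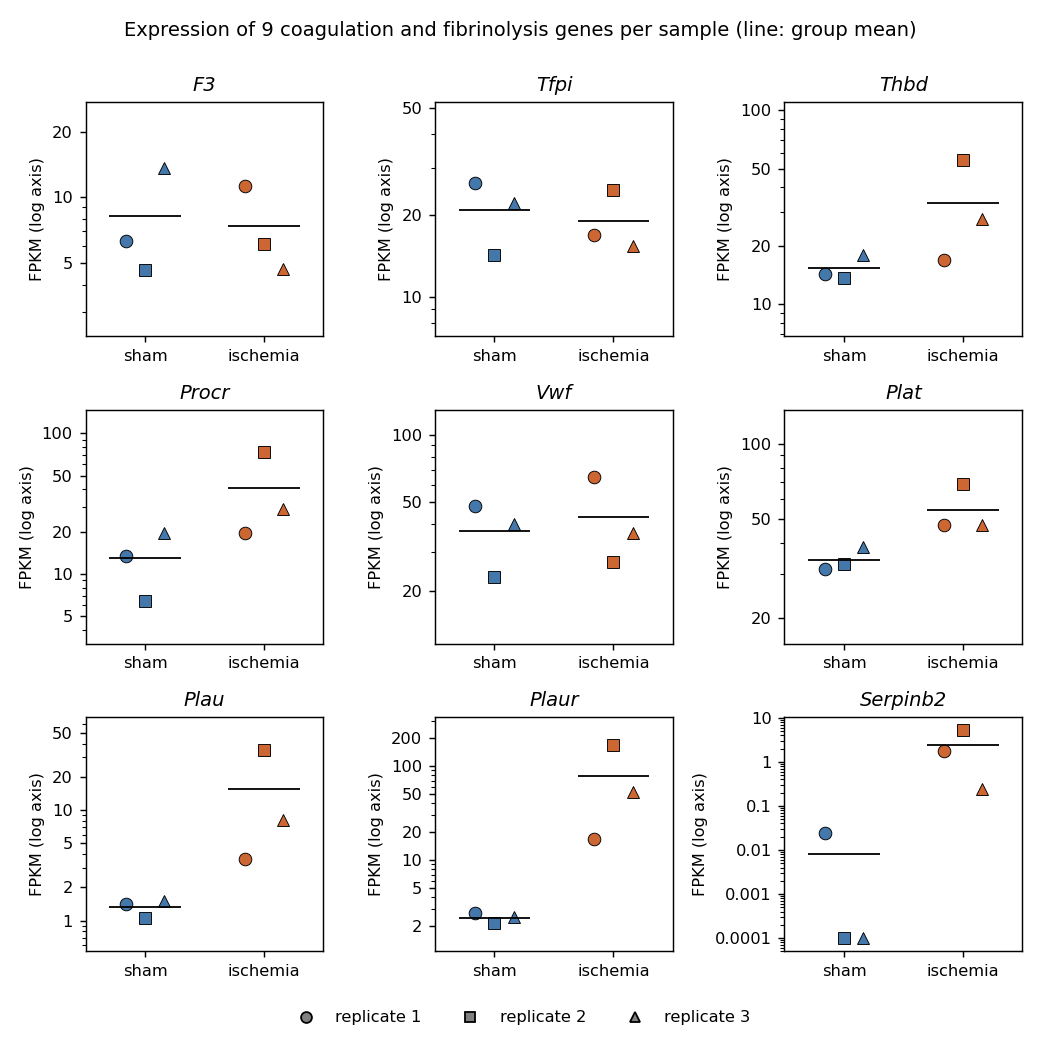
FPKM of each gene on a logarithmic axis, with 1 symbol per sample, the replicate given by its shape and the group mean by a line. All ischemia values of Procr, Plat, Plau, Plaur and Serpinb2 lie above all sham values, whereas the groups overlap for F3, Tfpi, Thbd and Vwf; Serpinb2 is listed at 0.0001 in sham replicates 2 and 3, where it had no reads.

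Plaur (ENSRNOG00000037931, chromosome 1 from 81328183 to 81344708 on the plus strand; the genome build of the table is not stated) encodes the receptor that holds urokinase at the cell surface. Sham rats had FPKM values of 2.71, 2.13 and 2.48, and ischemia rats 16.8, 166 and 52.6, here and below in the order of replicates 1 to 3. The sham samples lay close together, and the ischemia samples all lay above them but spread 9.89-fold among themselves, with replicate 2 highest. The sham mean was 2.44 ± 0.29 FPKM (SD, n = 3) and the ischemia mean 78.6 ± 78.0 FPKM (SD, n = 3). On the log2 scale Plaur rose by 4.87 ± 0.83 (SE), and the 95% interval ran from 2.88 to 6.87 (edgeR adjusted p 0.0359). Over 17 alternatives the log2 fold change of Plaur stayed between 3.81 and 5.33, the adjusted p ranged from 5.79e-10 to 0.16, and 12 of the alternatives kept the call.

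Plau (ENSRNOG00000010516, chromosome 15 from 3644769 to 3650819 on the minus strand) encodes urokinase, the protease that this receptor binds. Its FPKM was 1.41, 1.05 and 1.51 in sham, against 3.59, 34.7 and 8.11 in ischemia. The order of the ischemia samples was that of Plaur, and the lowest of them was above all sham samples. Plau had a log2 fold change of 3.41 ± 0.81 (SE; 95% interval 1.47 to 5.36), and of 2.13 without ischemia replicate 2. The edgeR adjusted p was 0.0545. Plau passed under 3 of 17 alternatives, with adjusted p-values from 8.16e-05 to 0.179 over all of them.

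Plat (ENSRNOG00000019018, chromosome 16 from 74098260 to 74122889 on the minus strand) encodes the tissue-type activator, which acts mainly on fibrin within vessels. Its FPKM was 31.4, 32.8 and 38.5 in sham, against 47.0, 68.8 and 47.2 in ischemia. The groups did not overlap, and both were narrow compared with those of Plau. Plat had a log2 fold change of 0.56 ± 0.20 (SE; 95% interval 0.08 to 1.04), which did not pass (edgeR adjusted p 0.117, range over alternatives 0.0577 to 0.285).

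Serpinb2 (ENSRNOG00000002460, chromosome 13 from 27449934 to 27463010 on the plus strand) encodes the type 2 inhibitor of plasminogen activators, known from activated monocytes. It had 4, 0 and 0 counts in sham and 281, 765 and 34 in ischemia. Sham replicate 1 was the only sham sample with reads, and ischemia replicate 3, the lowest of its group, was well above it. Pooled over the groups this was 4.90 CPM against 0.0180 CPM, a ratio of 272 with a 95% interval from 106 to 1002 that covers counting error only. FPKM in ischemia was 1.73, 5.19 and 0.238. The fitted log2 fold change of 7.83 ± 1.65 (SE; edgeR adjusted p 0.0468) rests on 4 sham reads, and without sham replicate 1 it was 11.37 with an adjusted p of 0.161. Serpinb2 passed under 5 of 16 alternatives, with adjusted p-values from 1.45e-06 to 0.161. On the log2(FPKM + 1) scale in limma its difference was 1.45, since this scale compresses low values.

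RefSeq promoter windows on the GRCr8 assembly were found for 5 of the 9 members, namely Plau, Plaur, Serpinb2, Procr and Tfpi. The 3 genes with log2 fold changes above 3 are shown because they moved most, each from 250 bases before to 50 bases after its start site, 5′ to 3′ on the strand of the gene. Plaur lies at chr1:89181113-89181412 (plus strand), Serpinb2 at chr13:24055771-24056070 (plus strand) and Plau at chr15:3511938-3512237 (minus strand). Capitals mark matches to an AP-1 site (TGANTCA) in the windows of Plaur and Serpinb2, and to a GC box (GGGCGG or its reverse complement) in that of Plau.

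Plaur: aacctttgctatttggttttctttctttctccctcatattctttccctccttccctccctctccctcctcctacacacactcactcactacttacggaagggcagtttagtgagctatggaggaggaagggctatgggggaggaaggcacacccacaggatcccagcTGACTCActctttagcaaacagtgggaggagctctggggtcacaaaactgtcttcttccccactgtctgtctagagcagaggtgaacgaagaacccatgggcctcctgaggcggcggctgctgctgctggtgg

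Serpinb2: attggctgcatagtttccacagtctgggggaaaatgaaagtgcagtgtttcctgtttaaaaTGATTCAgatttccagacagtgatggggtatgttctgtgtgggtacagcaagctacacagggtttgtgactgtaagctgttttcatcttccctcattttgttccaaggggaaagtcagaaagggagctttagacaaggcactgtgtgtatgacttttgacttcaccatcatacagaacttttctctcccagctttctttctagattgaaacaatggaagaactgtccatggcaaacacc

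Plau: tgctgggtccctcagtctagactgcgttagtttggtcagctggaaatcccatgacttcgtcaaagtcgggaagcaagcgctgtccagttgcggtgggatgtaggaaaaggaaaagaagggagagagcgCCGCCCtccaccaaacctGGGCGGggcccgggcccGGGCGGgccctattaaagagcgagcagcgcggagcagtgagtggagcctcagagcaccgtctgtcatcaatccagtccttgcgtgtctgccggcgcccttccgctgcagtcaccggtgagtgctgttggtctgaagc

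Counted from the start site, the AP-1 match begins at position -83 in Plaur and at -189 in Serpinb2, and the Procr window has a further match at -217. An AP-1 match was present in 7.33% of all 33469 promoter windows on either strand. Plau had no AP-1 match but 3 GC boxes, at positions -122, -104 and -87, and a GC box was present in 33.1% of windows. Matches to TATAAA, to TGACGTCA (the cyclic AMP response element), to ACGTG (the core of a hypoxia response element) and to the NF-kB motif were found in 14.2%, 1.83%, 19.3% and 4.18% of windows, both strands counted, and in none of the windows of Plaur, Serpinb2, Plau and Procr. Procr also had a GC box at position 29, and 1 of the 2 Tfpi windows had a GC box at -52 and overlapping ACGTG matches, 1 on each strand, at 6 and 7. A match describes these letters and is not evidence of binding.

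The anticoagulant receptors of the endothelium were next. Procr (ENSRNOG00000019330, chromosome 3 from 151285249 to 151289595 on the plus strand), the receptor that presents protein C for activation, had an FPKM of 13.4, 6.41 and 19.4 in sham, against 19.7, 73.5 and 28.8 in ischemia. The groups were apart by a narrow margin, between sham replicate 3 and ischemia replicate 1. For Procr the log2 fold change was 1.56 ± 0.54 (SE; 95% interval 0.27 to 2.85), which did not pass (edgeR adjusted p 0.111, range over alternatives 0.0253 to 0.258). Without ischemia replicate 2 it was 0.90.

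Thbd (ENSRNOG00000004687, chromosome 3 from 142748674 to 142752325 on the minus strand) encodes thrombomodulin, which binds thrombin and changes its substrate from fibrinogen to protein C. Its FPKM was 14.3, 13.7 and 17.9 in sham and 16.9, 55.2 and 27.6 in ischemia. Ischemia replicate 1 fell inside the sham range, and replicates 2 and 3 lay above it. Thbd had a log2 fold change of 1.01 ± 0.39 (SE; 95% interval 0.06 to 1.96) with an edgeR adjusted p of 0.139, from 0.0355 to 0.30 over the alternatives. The value was 0.51 without ischemia replicate 2 and passed, at 1.30, without ischemia replicate 1.

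Tfpi (ENSRNOG00000005039, chromosome 3 from 71852744 to 71893618 on the minus strand) encodes the inhibitor of the complex of tissue factor and factor VII. Its FPKM was 26.3, 14.3 and 22.2 in sham and 16.9, 24.9 and 15.4 in ischemia, and the groups overlapped throughout. For Tfpi the log2 fold change was -0.21 ± 0.23 (SE; edgeR adjusted p 0.535, from 0.298 to 0.885 over the alternatives). Its 95% interval, from -0.76 to 0.33, leaves room for a fold between 0.591 and 1.26.

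F3 (ENSRNOG00000011800, chromosome 2 from 225310624 to 225322272 on the plus strand), the gene of tissue factor, is the initiator of the cascade and is known to be expressed by cardiomyocytes and by cells around vessels. Its FPKM was 6.31, 4.66 and 13.7 in sham, against 11.3, 6.12 and 4.72 in ischemia. The highest and the lowest values were both sham samples. F3 had a log2 fold change of -0.20 ± 0.47 (SE; edgeR adjusted p 0.787, from 0.296 to 0.986 over the alternatives), with a 95% interval from -1.32 to 0.93. At this spread a fold between 0.40 and 1.90 could not be told from no change.

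Vwf (ENSRNOG00000019689, chromosome 4 from 158088505 to 158219523 on the plus strand) encodes the multimeric protein of endothelial storage granules. Its FPKM was 48.2, 23.2 and 39.9 in sham and 65.2, 27.0 and 36.3 in ischemia. Ischemia replicate 1 was highest, and the other ischemia samples fell inside the sham range. The log2 fold change of Vwf was 0.16 ± 0.40 (SE; 95% interval -0.79 to 1.12), with an edgeR adjusted p of 0.792, from 0.460 to 0.987 over the alternatives. For F3 and Vwf the 3 highest samples were sham replicates 1 and 3 and ischemia replicate 1, which are also the 3 samples with the highest summed CPM of atrial genes. The part of the atrial genes in these levels was not tested.

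**Figure D2:**
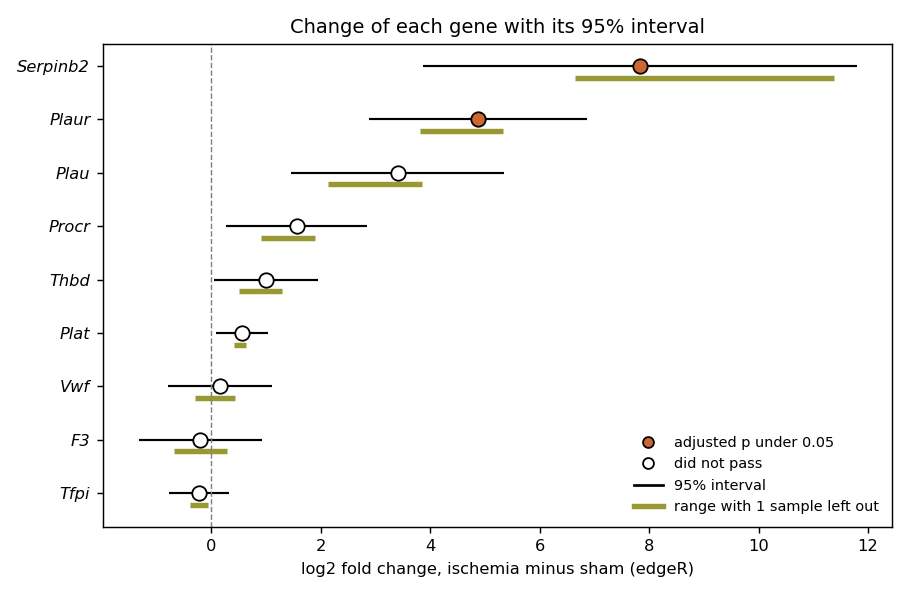
Log2 fold change of ischemia against sham for each gene from edgeR (circles, filled at an adjusted p under 0.05), with the 95% interval as a black line and the range over the 6 fits that each left out 1 sample as an olive bar. Plaur and Serpinb2 are filled; the intervals of F3, Tfpi and Vwf cross 0, and those of Plat, Thbd, Procr and Plau do not.

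The samples of the ischemia group were not alike. Ischemia replicate 2 had the highest FPKM of all 6 samples for 6 of the 9 members (Thbd, Procr, Plat, Plau, Plaur and Serpinb2), and within the ischemia group it was also highest for Tfpi. F3 and Vwf were instead highest of the ischemia group in replicate 1. Sham replicate 2 was lowest of all samples for 7 members and level with sham replicate 3 at 0 counts of Serpinb2, and only Plat was lowest elsewhere, in sham replicate 1. The share of all tested genes that are highest or lowest in these samples was not computed, so these counts may not be particular to the members.

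The order of the levels changed between the groups. In sham, mean FPKM fell from Vwf (37.1) and Plat (34.2) through Tfpi (20.9), Thbd (15.3), Procr (13.1) and F3 (8.21) to Plaur (2.44), Plau (1.32) and Serpinb2. The sample ranges of neighbours in this order overlapped for Vwf and Plat, Tfpi and Thbd, Thbd and Procr, and Procr and F3, and they were apart for Plat and Tfpi and for each step below F3. In ischemia Plaur had the highest mean (78.6), followed by Plat (54.3), Vwf (42.8), Procr (40.7), Thbd (33.2), Tfpi (19.0), Plau (15.5), F3 (7.37) and Serpinb2 (2.39). There the ranges of all neighbours overlapped, so that this order is not resolved by 3 samples.

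Ratios within a sample compare genes without reference to library size, and 10 ratios of FPKM were computed with 0.01 added to each value. An exact two-sided permutation test of 3 against 3 samples cannot give a p below 0.1, so none could pass 0.05. Adjusted over the 10 ratios by the Benjamini-Hochberg method, the smallest p was 0.429. The ratio of tissue factor to its inhibitor, F3 over Tfpi, was 0.240, 0.326 and 0.616 in sham and 0.669, 0.246 and 0.308 in ischemia (exact permutation p 0.9). The values of the groups were interleaved.

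Plaur over Plau, the ratio of the receptor to its protease, was 1.91, 2.01 and 1.65 in sham, against 4.67, 4.79 and 6.48 in ischemia. The ischemia values were all higher, and their SD was 0.263 on the log2 scale, while Plaur and Plau themselves varied about 10-fold between the same samples (9.89-fold and 9.66-fold). The mean difference was 1.51 on the log2 scale (exact permutation p 0.1, the smallest possible). It stayed between 1.36 and 1.59 when each sample was left out in turn.

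Plau over Plat, the ratio of both activators, was 0.0453, 0.0324 and 0.0394 in sham and 0.0765, 0.504 and 0.172 in ischemia, higher in 3 of 3 ischemia samples (log2 difference 2.28, exact permutation p 0.1). The difference was 1.57 without ischemia replicate 2 and 2.93 without ischemia replicate 1. Thbd over F3 (log2 difference 1.06, exact permutation p 0.3) and Thbd over Procr (-0.59, exact permutation p 0.2) overlapped between the groups. Single samples moved both, Thbd over F3 to 0.52 without ischemia replicate 2 and to 1.82 without ischemia replicate 1, and Thbd over Procr to -0.22 without sham replicate 2.

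**Figure D3:**
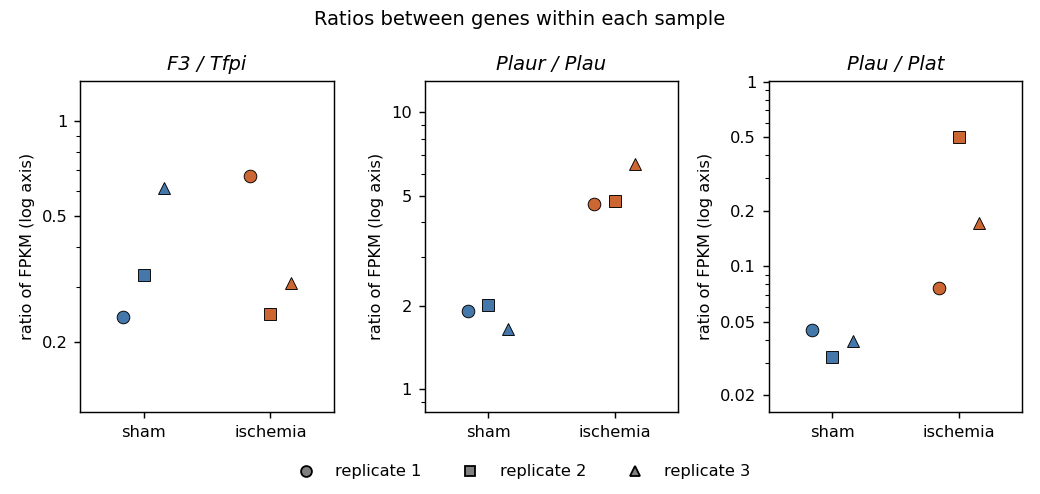
Ratios of FPKM within each sample on logarithmic axes, 1 symbol per sample. F3 over Tfpi is interleaved between the groups, whereas Plaur over Plau and Plau over Plat are higher in all 3 ischemia samples.

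Vwf, Thbd, Procr, Tfpi and Plat were also set against the geometric mean of 9 endothelial marker genes. Of these markers Cldn5 had 0, 360 and 0 counts in sham and 2669, 0 and 0 in ischemia, and Robo4 had 0 counts in ischemia replicate 1, so the ratios were repeated without both, a choice made after seeing the data. With the other 7 markers, Plat over endothelial markers was 1.08, 0.965 and 1.26 in sham and 1.46, 1.65 and 1.28 in ischemia (log2 difference 0.41, exact permutation p 0.1), and Vwf over them had a log2 difference of -0.07 (exact permutation p 0.9). With all 9 markers the values were 0.58 (p 0.3) and 0.11 (p 0.9) by the same exact permutation test. For Thbd, Procr and Tfpi the groups overlapped with either set of markers, with log2 differences of 0.72, 1.30 and -0.37 for 7 markers and 0.89, 1.48 and -0.19 for 9. With 9 markers and without sham replicate 2, the differences were 0.43 for Thbd, 0.65 for Procr and 0.17 for Plat. Without ischemia replicate 2 they were 0.48 for Thbd and 0.98 for Procr. None of the 9 endothelial markers passed an edgeR adjusted p of 0.05, and their summed CPM was 703 to 918 in sham and 806 to 1075 in ischemia.

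Other genes of the pathway were read from 4 lists with 50 genes, of which 48 were in the table and 24 were tested. With edgeR, 3 of the 24 were higher at an adjusted p under 0.05 and 0 were lower, against 5.18% and 1.53% of all tested genes, while 11 had an unadjusted p under 0.05, against 32.4% of all tested genes. DESeq2 called 7 higher and 4 lower, against 14.9% and 12.6% of all genes it tested. The median log2 fold change of the 24 genes was -0.06 and 11 were above 0. The 3 genes that rose were F2rl2, which entered the test only through its ischemia level, Anxa2 and Mcfd2. None of them passed when a sham rat or ischemia replicate 3 was left out, nor did any other gene of the table. Without ischemia replicate 1, 7 passed higher and 4 lower, against 10.7% and 7.98% of all tested genes.

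Of the fibrinolysis list 9 genes were tested and 1 rose in edgeR. Anxa2, which forms a cell-surface complex that binds the tissue-type activator and plasminogen, had an FPKM of 153, 107 and 182 in sham and 347, 1039 and 552 in ischemia. All ischemia samples lay above all sham samples, and Anxa2 rose with a log2 fold change of 2.04 ± 0.40 (SE; edgeR adjusted p 0.0427). Its partner S100a10 had a value of 1.54 (0.0623). Clec3b, which encodes the plasminogen-binding protein tetranectin, had the lowest value of the list (-2.83, edgeR adjusted p 0.0899). Plasminogen itself (Plg) was under the expression filter, with 30 to 147 counts in sham and 0 to 31 in ischemia.

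Of the protease-activated receptors 3 were tested. F2rl2, a cofactor for thrombin signaling, had an FPKM of 0.438, 0.391 and 0.600 in sham and 2.79, 22.0 and 4.94 in ischemia, with a log2 fold change of 4.23 ± 0.81 (SE; edgeR adjusted p 0.0415). Like Serpinb2 it entered the test only through its ischemia level, since its sham mean was 0.476 FPKM. Its ischemia samples followed the order of Plau and Plaur. F2rl1 had a value of 1.44 (edgeR adjusted p 0.0561) and F2r, the main thrombin receptor, -0.39 (0.224).

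Most of the circulating factors are made in the liver, and 8 of the 19 coagulation factor genes in the table were tested. Mcfd2, which helps to export factors V and VIII from the endoplasmic reticulum, rose by 0.79 ± 0.17 (SE; edgeR adjusted p 0.0478), and F5 had a value of 2.42 (0.0645), with a mean of 0.159 FPKM in sham and 0.922 FPKM in ischemia. Fgg had the lowest value, -4.85 (edgeR adjusted p 0.110), with 434, 305 and 176 counts in sham and 35, 0 and 0 in ischemia. F5 entered the test only through its ischemia level and Fgg only through its sham level. Among the 4 anticoagulant genes tested none passed in edgeR, and 1 had an unadjusted p under 0.05. Tfpi2, which encodes a second inhibitor of the Tfpi family, had the largest value, 3.83 (edgeR adjusted p 0.0862), and an FPKM of 2.38, 54.8 and 5.60 in ischemia against 1.21 to 1.39 in sham.

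**Figure D4:**
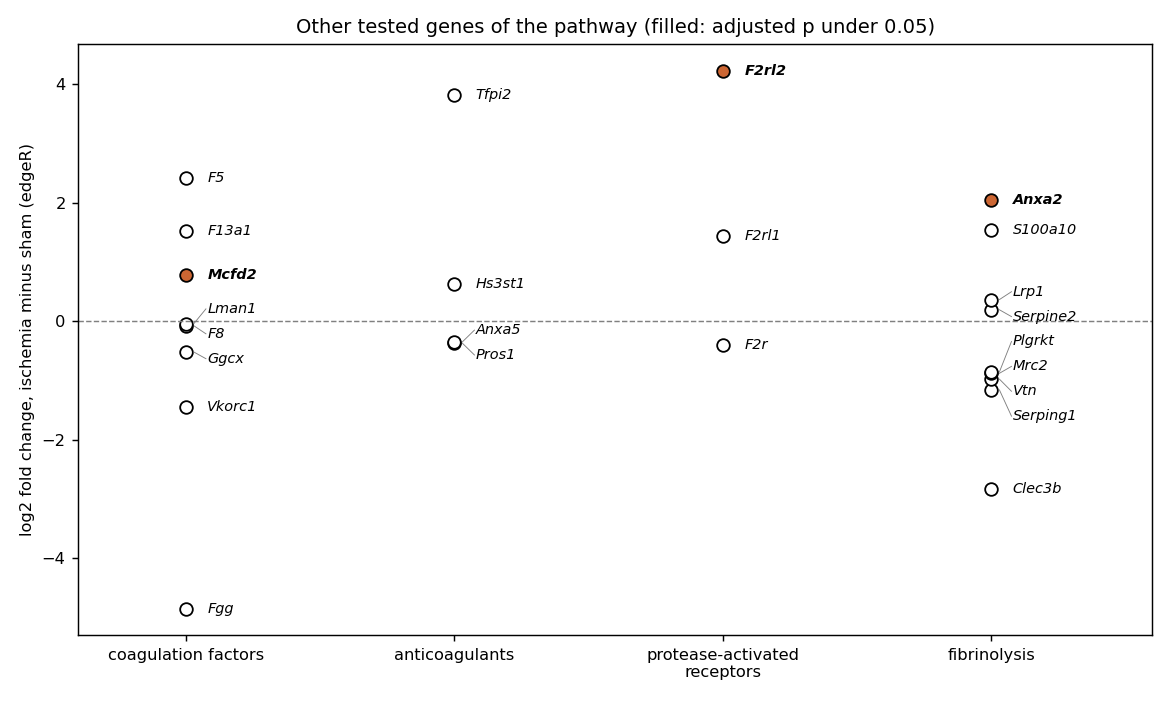
Log2 fold change of ischemia against sham from edgeR for the 24 other tested genes of the pathway, grouped by list, with filled circles and bold names at an adjusted p under 0.05. F2rl2, Anxa2 and Mcfd2 are filled, and the values run from -4.85 for Fgg to 4.23 for F2rl2.

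The table assigns all 9 members to the pathway of complement and coagulation cascades, together with 70 other genes considered here. Of the 36 others that were tested, 5 were higher and 0 lower in edgeR (5.18% and 1.53% of all tested genes were), 15 had an unadjusted p under 0.05 (32.4% of all tested genes did), and the median log2 fold change was -0.41. Of the 5 that were higher, F2rl2 entered the test only through its ischemia level. The others were the leukocyte integrin genes Itgb2, Itgam and Itgax and the complement receptor gene C5ar1. They are named because the count is small and were chosen after their values were seen.

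Marker genes of other cells were read in the same samples. Of 16 neutrophil and monocyte genes that the table holds, 15 were tested and 13 rose in edgeR, and the summed CPM of the 16 was 211 to 275 in sham against 2293, 9378 and 2735 in ischemia replicates 1 to 3. Of the 15 genes of this list detected in all ischemia samples, 9 had the order of Plau and Plaur, with replicate 2 highest and replicate 1 lowest. For 5 others replicate 3 was lowest, as for Serpinb2, and Lcn2 was highest in replicate 1. The share of all tested genes with these orders was not computed, so the counts describe this list only. Retnlg and Fpr1 of this list had no counts in any sham sample. None of the 6 ventricular cardiomyocyte genes given above passed in edgeR. Of 9 resident macrophage genes 1 rose (edgeR), with a summed CPM of 297 to 461 in sham and 410 to 706 in ischemia. The summed CPM of 6 mesothelial genes was 105 to 223 in sham and 75.3, 16.3 and 13.4 in ischemia, and that of 7 platelet genes overlapped (15.3 to 46.5 and 24.4 to 62.0). Among the platelet genes Gp1bb had a mean FPKM of 15.3 in sham and 0.347 in ischemia (adjusted p 0.0406 in edgeR), and it entered the test only through its sham level, while Pf4 was higher in 3 of 3 ischemia samples without passing (adjusted p 0.135 in edgeR). None of 5 fibroblast genes and 5 genes of smooth muscle and pericytes passed in edgeR, and all of them had log2 fold changes below 0. The part of these cells in the values of the 9 members was not tested.

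**Figure D5:**
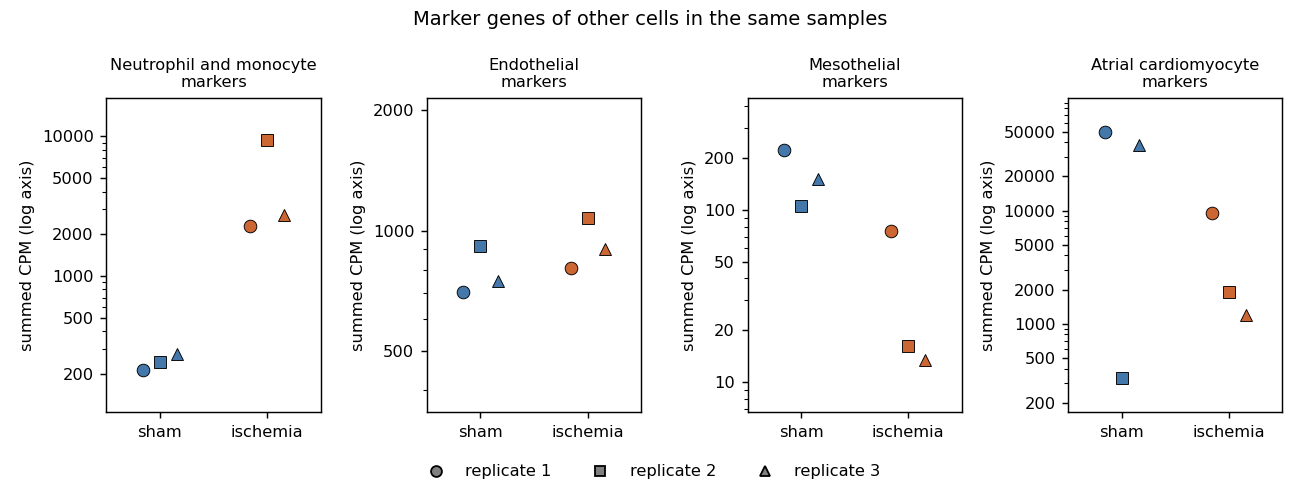
Summed CPM of marker genes in each sample on logarithmic axes. Neutrophil and monocyte genes are higher in all ischemia samples (2293 to 9378 against 211 to 275), endothelial genes lie between 703 and 1075 in all samples, mesothelial genes are lower in all ischemia samples, and atrial genes range from 328 to 49547 without separating the groups.

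The genes most like each member were found from log2 CPM over the 6 samples, centred on each gene's own mean, by the root-mean-square difference between profiles among 13961 other tested genes. The measure includes the difference between the groups and is a description. Closest to Plaur were Inhbb (0.177), Lilrb4 (0.201) and Havcr2 (0.281), and closest to Plau were the leukocyte genes Cd53 (0.165), Fcgr2a (0.179) and Pirb (0.224). Thbd was closest to Lmo2 (0.0840), Rin3 (0.104) and Tpm4 (0.109), and Plat to Coro1b (0.0437), Ap1s2 (0.0447) and Cmtm3 (0.0519). Tfpi was closest to Lmbr1 (0.0537), Vamp4 (0.0540) and Frs2 (0.0551), and Vwf to Spag8 (0.153), Sema5a (0.158) and Clba1 (0.174). For the other members 1 of the 3 nearest genes has only a placeholder name, and the remaining ones were Sowahc (0.0605) and Ncr3 (0.142) for Procr, Gpr19 (0.157) and Zfp467 (0.176) for F3, and Prok2 (1.08) and Dsg3 (1.23) for Serpinb2. No member was among the 3 nearest genes of another member. Plau was nearer to Plaur (0.771, place 97) than any other member was, while Vwf was nearest to F3 among the members (0.482, place 733).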

How the data were processed

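Libraries had been made from myocardium of 3 sham and 3 ischemia rats with a stranded total RNA kit. In the single table that the authors deposited there are raw read counts, whole numbers that were not normalized, together with FPKM values that the authors had scaled by gene length and library size, genes without reads being listed at 0.0001. The submitters' processing notes name STAR and HTSeq without versions or counting settings, and the genome build is not given in the sources used here. Groups and replicate numbers came from the sample titles. The labels do not say how samples were processed in batches, so p-values measure only the spread between these samples.

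The deposited counts were tested for genes whose FPKM averaged 0.5 or more with the edgeR quasi-likelihood test after TMM scaling (trimmed mean of M-values), two-sided, with Benjamini-Hochberg adjustment over all 13964 tested genes and a threshold of 0.05. The SE came from the F statistic. The members and lists were chosen with earlier results of these data known. Named genes were all members, their 3 nearest genes by profile and, from each of 4 lists, every gene past the threshold or otherwise that of the largest change. F5, Fgg, F2r, F2rl1, S100a10, Clec3b, Plg and single marker or pathway genes were named in addition, after their values were seen. Some genes entered the fit but are not reported here, and the lists, ratios and profiles leave them out. The edgeR test was checked on simulated counts. Alternatives were 3 other scalings, no expression filter, a mean FPKM of at least 5, DESeq2, limma on log2(FPKM + 0.1), log2(FPKM + 1) and log2(FPKM + 0.01), the replicate number as a block, each sample left out, and summed rows of repeated symbols. Promoters came from RefSeq. The tools were edgeR 4.0.16, DESeq2 1.42.0 and limma 3.58.1 in R 4.3.3, and Python 3.11.15.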

Additional observations from a re-analysis of the deposited data

How the results depend on the processing

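Members higher at an adjusted p under 0.05, 2 in edgeR, numbered 1 with total-count scaling, without a filter and with each of the 3 limma fits, 4 with DESeq2, 0 with the replicate block, and from 0 to 4 with 1 sample left out. Of all 13964 tested genes 723 were higher in edgeR, 509 with total-count scaling and 657 to 850 in the limma fits. Without a filter 493 of 20541 were higher, and with DESeq2 2071 of 13856. With the replicate block 0 genes were higher, and from 0 to 1490 with 1 sample left out. At a mean FPKM of at least 5 the count of members was also 2, but of Plau and Plaur, since Serpinb2 was not tested. There 725 of 8156 genes were higher. By the cut of the study, applied to the values of each fit, 3 members passed in edgeR, 1 with limma on log2(FPKM + 1) and from 1 to 3 with 1 sample left out. The other genes of the pathway, 3 higher and 0 lower in edgeR, numbered 1 higher with total-count scaling and with limma on log2(FPKM + 1), 7 higher with DESeq2, and 0 to 7 higher and 0 to 4 lower with 1 sample left out; 4 were lower with DESeq2 and 1 with each limma fit. Deviations from the group means did not go together in samples of the same number (correlations -0.050, -0.074 and -0.187). With 3 samples per group, each centred on its own mean, this cannot exclude a pairing. With the replicate block 0 other genes were higher, and the log2 fold changes were 4.37 for Plaur and 7.78 for Serpinb2. No gene of the table was called with this block, although 3349 had an unadjusted p under 0.05. F3 ranged from -0.68 to 0.30 and Vwf from -0.29 to 0.43 with 1 sample left out, so their directions are not set; those of the other 7 members were kept under every alternative in which they were tested. Also with 1 sample left out, the log2 ratio of F3 to Tfpi ranged from -0.40 to 0.40, of Vwf to endothelial markers from -0.58 to 0.53 of Tfpi to them from -0.82 to 0.20, of Thbd from 0.43 to 1.29, of Procr from 0.65 to 2.02 and of Plat from 0.17 to 0.85. Vwf over endothelial markers turned to -0.012 with 0.1 added to each FPKM and to -0.070 without Cldn5 and Robo4. The cause of these changes was not tested. Over all genes, calls ranged from 0 to 2071 higher and from 0 to 1742 lower. Total-count scaling moved the median of all genes from -0.0015 to 0.088. Serpinb2 in sham was the member value that depth limited.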
